A study of Homo sapiens with 6 samples.

Results

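The mRNAs described here are 8 transcripts that earlier work outside this series had reported as bound or stabilised by IGF2BP1: ACTB, MYC, CD44, BTRC, SRF, LIN28B, HMGA2 and GLI1. They were chosen by name, with earlier results of these data known, and all 8 were found among the 20030 genes of the deposited table. RNA-seq was carried out on cells labelled NCI-H929, an established human multiple myeloma cell line, although marker levels given below go against that label, with 3 libraries of IGF2BP1-KD cells and 3 of IGF2BP1-NC cells, the negative control. The knockdown vector described for the study carried a short hairpin RNA (shRNA) under the hU6 promoter in the GV112 lentiviral backbone, and transduced cells were selected with puromycin as a stable line. A pair of target sequences is given for the knockdown, but which of them these libraries carry, and the sequence of the control hairpin, are not stated in the sources used here. Since nothing says that the replicates came from separate cultures, the p-values measure only the spread between these libraries, which may be technical. The comparison asks in which direction, and by how much, the level of each mRNA differed when IGF2BP1 was lower.

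IGF2BP1 is an RNA-binding protein of the oncofetal IGF2BP family, which reads N6-methyladenosine (m6A) marks and holds bound mRNAs in cytoplasmic granules. There it is known to shield some mRNAs from decay, as with the coding region of MYC, and to localise others without changing their amount, as with the zipcode of ACTB. It also shields some mRNAs from microRNAs of the let-7 family, which LIN28B keeps low and which repress LIN28B and HMGA2 in return. The 8 mRNAs fall by role into the cytoskeletal actin ACTB and the factor SRF that drives actin genes, the transcription factor MYC, the surface receptor CD44, the growth regulators LIN28B and HMGA2, and the ubiquitin ligase subunit BTRC with the Hedgehog factor GLI1.

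Before the levels, the sequence features of these mRNAs were read from the canonical GENCODE release 44 transcripts (GRCh38), of which 18366 genes of the table have a 3′ UTR. A zipcode-like element, CGGAC followed after 10 to 25 bases by ACA on the mRNA strand, is shown because it is the kind of site the KH domains of IGF2BP1 are known to bind in ACTB. It was found in the 3′ UTR of 4.2% of the genes and, among the 8 mRNAs, in ACTB alone, starting at base 2 after the stop codon. ACTG1, the other cytoplasmic actin, does not hold these letters in its 3′ UTR. The window lies at chr7:5527718-5527747 on the minus strand, and the capitals mark the parts searched:
ACTB zipcode-like element: gCGGACtatgacttagttgcgttACAccct

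The let-7 site is shown because it separates LIN28B and HMGA2 from the other members. Mature let-7a from RefSeq (GRCh38.p14) is printed with its seed, bases 2 to 8, in capitals, and 9 mature miRNAs of the let-7 and miR-98 family share this seed. The 7-base match CTACCTC, searched on the mRNA strand, occurred 4 times in the 3′ UTR of LIN28B, 4 times in that of HMGA2 and 4 times in that of IGF2BP1 itself, and in the 3′ UTR of no other of the 8 mRNAs. Of all genes with a 3′ UTR, 9.86% hold at least 1 match and 1.16% hold at least 2. The match nearest to the stop codon is given for each, at chr6:105078816-105078845, chr12:65963302-65963331 and chr17:49051065-49051094 on the plus strand, with the match in capitals:
let-7a-5p: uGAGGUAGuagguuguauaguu
LIN28B: ggttgcaaagtCTACCTCatgcaagtatag
HMGA2: acgttcgatttCTACCTCagcagcagttgg
IGF2BP1: tgcgaagtaaaCTACCTCaaggtatgaagt

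Promoters from RefSeq (GRCh38.p14; 250 bases before to 50 after the start) could be searched for SRF, CD44 and LIN28B, while ACTB, MYC, BTRC, HMGA2 and GLI1 had no entry. The CArG box, the site that SRF protein binds, reads the same on both strands by its rule. SRF's own promoter held 2 of them, CD44 and LIN28B held 0, and 1.25% of 21136 promoters held at least 1. The windows lie at chr6:43171229-43171258 and chr6:43171249-43171278 on the plus strand, overlap by part of their flanks, and show each box in capitals:
SRF promoter, box farther from the start: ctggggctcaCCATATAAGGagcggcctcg
SRF promoter, box nearer to the start: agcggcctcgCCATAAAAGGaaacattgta

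The hairpin targets are printed because a hairpin can also act on other mRNAs through its seed. They lie in the coding sequence of IGF2BP1, in exon 13 at chr17:49045893-49045913 and in exon 4 at chr17:49026496-49026516, and neither occurs in any of the 8 mRNAs. Capitals mark the 7 bases that pair with guide bases 2 to 8. The seed match of the first target occurred once in the 3′ UTR of BTRC and once in that of SRF (11.7% of all genes hold it), and that of the second occurred 2 times in SRF's (10.7% of all genes). The other 6 members held neither in their 3′ UTR.
First IGF2BP1 shRNA target: cagggaagaatctATGGCAAa
Second IGF2BP1 shRNA target: acagtagagaactGTGAGCAa

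The pentamer GGACT, a common form of the m6A sequence context, was counted along whole mRNAs as a description. It was densest in ACTB with 2.21 per kb, and GLI1 had 1.51, MYC 1.34, HMGA2 1.21, BTRC 0.996, CD44 0.921, SRF 0.709 and LIN28B 0.367 per kb, beside a median of 0.926 over all genes. The presence of these letters does not show methylation or binding.

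Total counts per library lay between 16885449 and 18112179, and 3 counts, the limit that a count of 0 allows, are 0.166 to 0.178 CPM on these unscaled totals. Elsewhere CPM is the count scaled to a common library size with edgeR's TMM factors. Of the 20030 genes, 11994 passed the filter on low counts, and these were fitted together by the quasi-likelihood method of edgeR with two-sided p-values adjusted after Benjamini and Hochberg over all of them. A gene was called at an adjusted p under 0.05. IGF2BP1 counts were 7550, 6904 and 8055 in IGF2BP1-NC and 2193, 1980 and 2019 in IGF2BP1-KD, a log2 fold change of -1.85 ± 0.065 (SE, n = 3 libraries per group; adjusted p = 4.8e-08, edgeR). Its paralogs IGF2BP2 and IGF2BP3 had log2 fold changes of 0.06 (adjusted p = 0.55) and -0.22 (adjusted p = 0.0293), and the IGF2BP3 call was made in 11 of 16 settings. As to the labelled cell type, counts of 7 of 14 plasma cell markers, among them IRF4, TNFRSF17 and CD38, never exceeded 3 in a library. On the same measure for both sets, 3 of the 14 plasma cell markers and all 14 erythroid markers were above 1 CPM in every library. The summed CPM of the erythroid markers was 7448 to 9194 in IGF2BP1-NC and 8286 to 9323 in IGF2BP1-KD. Of the 14, 2 were called higher and 6 lower (57.1%, against 28.2% of all tested genes), with a median log2 fold change of -0.22. The rises were in EPB42, a red cell membrane protein (1.73, edgeR adjusted p = 0.000155), and AHSP, which stabilises alpha-globin (0.61, adjusted p = 0.0297), and 3 of the 8 calls, that of EPB42 among them, were made whichever library was left out. Of the plasma cell markers 5 were tested, 1 was called higher (SLAMF7, 4.37, edgeR adjusted p = 0.00878) and 0 lower (20%), with a median of 0.32. The summed CPM of the plasma cell markers was 78.3 to 160.5 in IGF2BP1-NC and 81.6 to 86.6 in IGF2BP1-KD. The SLAMF7 call was lost without IGF2BP1-NC library 1 or 3 (adjusted p = 0.0579 and 0.0588, edgeR). These markers go against the label of a myeloma line, and the identity of the cells is in doubt. In bulk RNA, fewer cells of a type and less RNA per cell cannot be told apart, and the part of cell type in the results below was not tested.

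The 8 mRNAs did not move together. MYC, which drives growth genes, fell by 25.9% in IGF2BP1-KD, whereas CD44, the receptor for hyaluronan, rose 3.35-fold. ACTB, SRF, BTRC, LIN28B and GLI1 did not pass the test, and HMGA2 had too few counts to pass the filter. Thus 2 of the 7 tested members were called (28.6%), 1 higher and 1 lower, where 28.2% of all tested genes were called, 13.7% higher and 14.5% lower. The members were therefore called about as often as any gene. With a change of at least 2-fold required as well, CD44 was the called member, where 4.73% of all tested genes were called, 3.06% higher and 1.67% lower. At an unadjusted p under 0.05, 4 members passed, BTRC and SRF in addition to the called ones. The CPM of the groups did not overlap for MYC, CD44 and SRF, that is 3 of 7 (42.9%), against 45.6% of all tested genes. The median log2 fold change of the 7 was 0.14, and that of all tested genes was -0.0048.

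**Figure D1:**
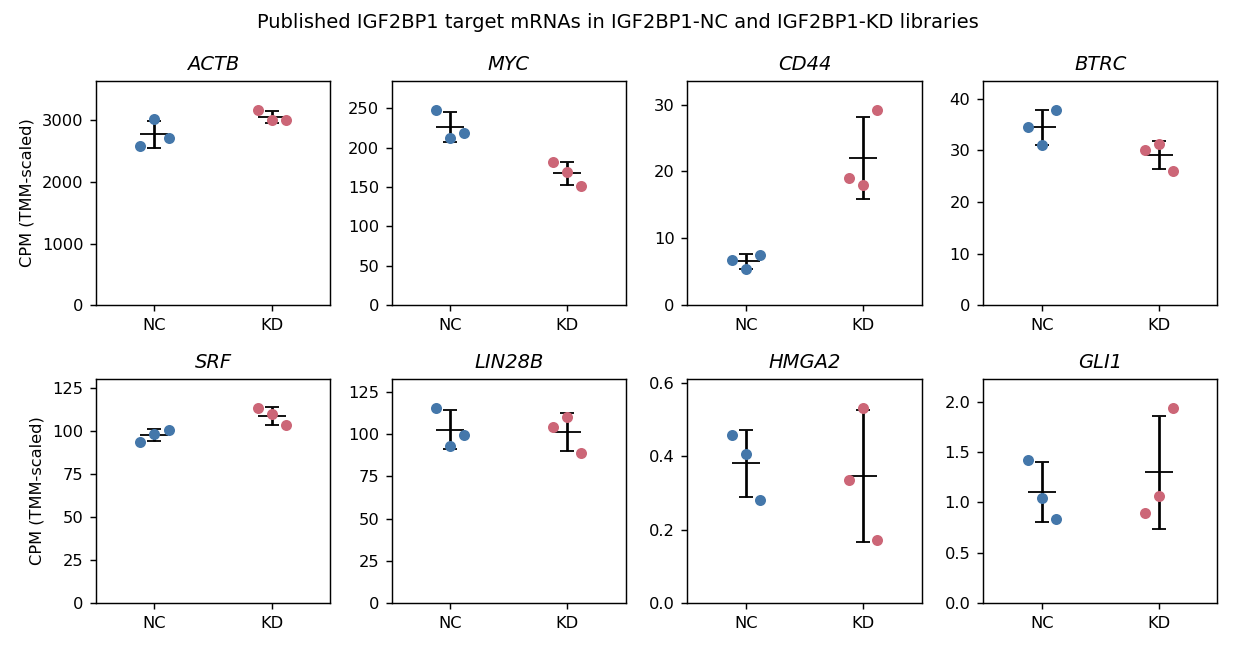
CPM (TMM-scaled, linear axes from 0) of each target mRNA in the 3 IGF2BP1-NC and 3 IGF2BP1-KD libraries; points are libraries, and bars give the mean ± SD. The groups are apart for MYC (lower in KD), CD44 (higher in KD) and SRF, and overlap for the other mRNAs.

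**Figure D2:**
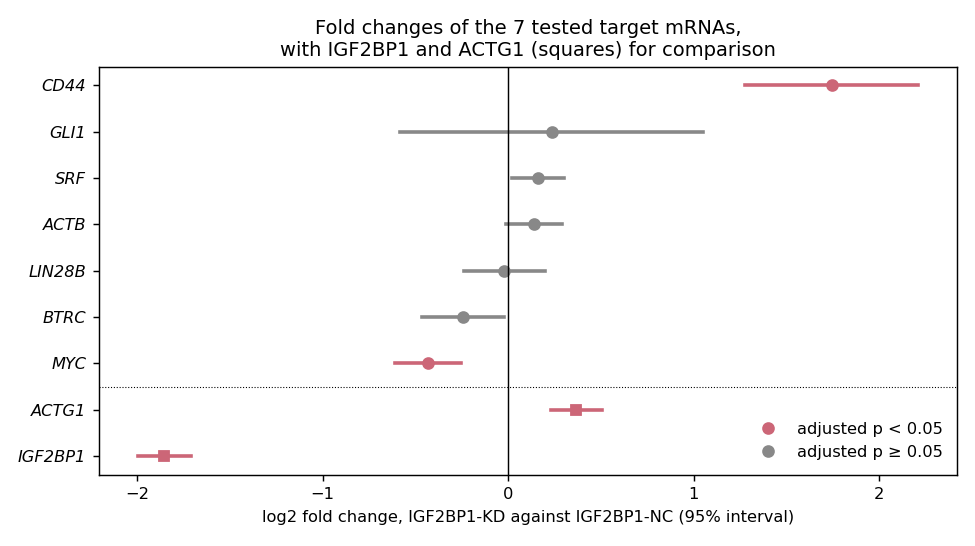
Log2 fold changes of the 7 tested target mRNAs, with IGF2BP1 and ACTG1 as squares; lines are 95% intervals from edgeR, and red marks an adjusted p under 0.05. CD44 at 1.74 and MYC at -0.43 are the called members, and the interval of GLI1 is the widest.

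Levels of different genes were set side by side in FPKM, the deposited value per length. The order was the same in both groups: ACTB, MYC, SRF, LIN28B, BTRC, CD44, GLI1 and HMGA2. In IGF2BP1-NC, mean FPKM was 1436 ± 101 for ACTB, 49.9 ± 4.87 for MYC, 22.7 ± 0.529 for SRF and 17.6 ± 2.24 for LIN28B (SD, n = 3 each). The lower members were BTRC at 4.57 ± 0.453, CD44 at 0.888 ± 0.148, GLI1 at 0.269 ± 0.0764 and HMGA2 at 0.0627 ± 0.0156. ACTB thus stood 28.8-fold above the next member and was among the most abundant mRNAs of these cells, with 0.0667% of tested genes at a higher mean count level. Each gene was above the next in the order in every library, except that CD44 in IGF2BP1-KD library 3, at 3.99, passed the BTRC value of that library, 3.48.

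**Figure D3:**
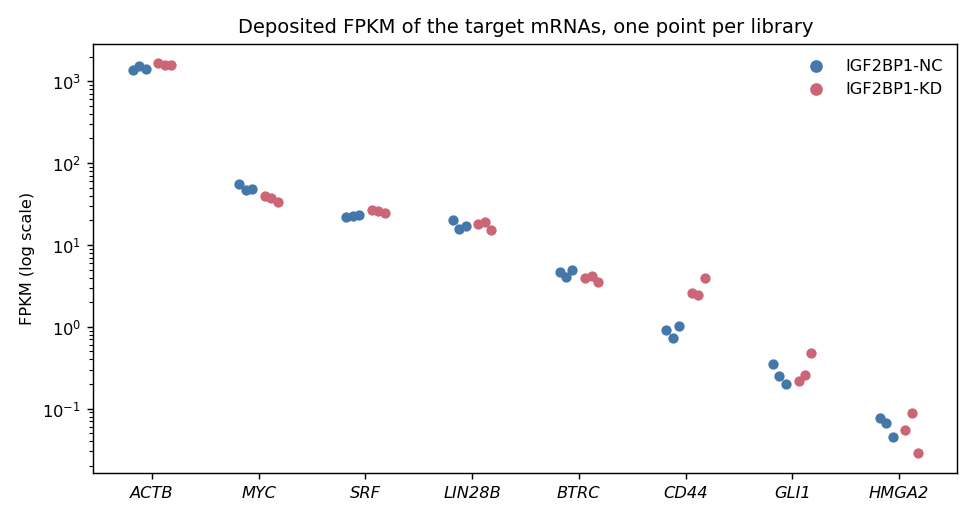
Deposited FPKM of the 8 target mRNAs on a log axis, one point per library, ordered by level. The order is the same in both groups, from ACTB at 1436 (IGF2BP1-NC mean) to HMGA2 at 0.0627, and CD44 passes BTRC in IGF2BP1-KD library 3.

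ACTB (NCBI gene 60; chr7:5526409-5563902, minus strand, 6 exons in GENCODE release 44) encodes cytoplasmic β-actin and carries the zipcode-like element printed above. Its counts were 45286, 51927 and 48616 in IGF2BP1-NC libraries 1, 2 and 3 and 56550, 50800 and 52590 in IGF2BP1-KD libraries 1, 2 and 3. The KD libraries lay in the upper part of the range, and IGF2BP1-NC library 2 reached into them. Mean CPM was 2773 ± 219.9 and 3054 ± 94.2 (SD, n = 3), a log2 fold change of 0.14 with a 95% interval from -0.010 to 0.29 (edgeR adjusted p = 0.149). A decrease of more than 0.010 on the log2 scale was outside this interval. The mRNA took 0.262% to 0.316% of the counts of a library. Without IGF2BP1-NC library 2 the log2 fold change was 0.20 and passed the test (adjusted p = 0.0342, edgeR).

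Its paralog ACTG1, the γ-actin of the cytoplasm, which does not hold the zipcode-like letters in its 3′ UTR, was the called actin. ACTG1 counts were 19875, 19922 and 18479 in IGF2BP1-NC and 26073, 23566 and 25300 in IGF2BP1-KD, so every KD library was above every NC library. Its level rose by 0.37 ± 0.062 on the log2 scale (SE; edgeR adjusted p = 0.00171), and the call was made in 16 of 16 settings. ACTB accounted for 69.5%, 72.3% and 72.5% of the counts of both genes in IGF2BP1-NC and 68.4%, 68.3% and 67.5% in IGF2BP1-KD. The share fell by 3.32 percentage points, from 71.4% ± 1.66 to 68.1% ± 0.500 (SD, n = 3), and the groups did not overlap; a two-sided exact permutation test gave p = 0.1, the smallest value that 3 against 3 libraries allow. How the counting assigned reads that match both actins or their pseudogenes is not given in the sources used here, so the split between the 2 genes is uncertain to that extent. Of the other 4 actins, which mark muscle, ACTA1 was tested (1.44, adjusted p = 0.117) and ACTA2, ACTC1 and ACTG2 had too few counts. Thus 1 of 3 tested actins was called (33.3%, against 28.2% of all tested genes), with a median of 0.37.

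**Figure D4:**
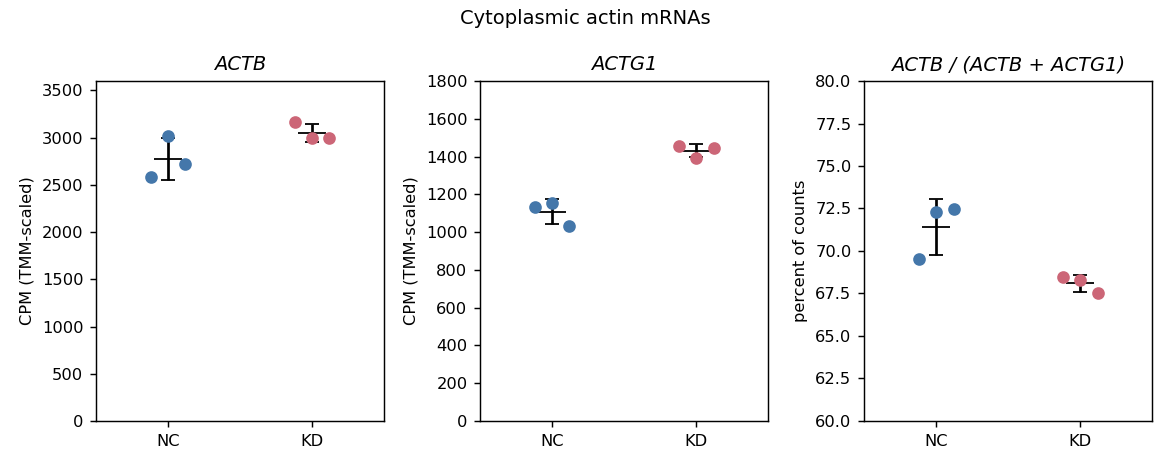
CPM of ACTB and ACTG1 (axes from 0) and the percent of ACTB among the counts of both genes (axis from 60 to 80), by library; bars give the mean ± SD. ACTB overlaps between the groups, ACTG1 is higher in every KD library, and the ACTB share is 71.4% in IGF2BP1-NC and 68.1% in IGF2BP1-KD.

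SRF (NCBI gene 6722; chr6:43171269-43181506, plus strand, 7 exons) is the serum response factor, which binds CArG boxes of actin and immediate early genes, including those of its own promoter. Counts were 1638, 1691 and 1795 in IGF2BP1-NC and 2026, 1857 and 1810 in IGF2BP1-KD. Every KD library was above every NC library, IGF2BP1-KD library 3 by the least. Mean CPM was 97.4 ± 3.53 and 108.7 ± 5.07 (SD, n = 3), with a log2 fold change of 0.16 (95% interval 0.019 to 0.30; edgeR adjusted p = 0.0846). The test was passed only with upper-quartile factors (adjusted p = 0.0383).

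Of the 22 SRF target genes listed from textbook knowledge, 19 were tested, 1 was called higher and 4 lower. These calls were 26.3% of the tested targets, against 28.2% of all tested genes. The median log2 fold change of the targets was -0.075. ZYX, a focal adhesion protein, fell by 0.75 on the log2 scale (edgeR adjusted p = 0.000369), with FPKM of 46.9 in IGF2BP1-NC and 28.1 in IGF2BP1-KD. TPM1, a tropomyosin that coats actin filaments, rose by 0.35 (adjusted p = 0.00884). The other called targets, named after their values were seen, were VCL (-0.35), JUNB (-0.24) and CNN2 (-0.22), which encode vinculin, an AP-1 subunit and a calponin. The immediate early genes FOS and EGR1 had log2 fold changes of -0.18 (adjusted p = 0.662) and -0.07 (adjusted p = 0.855). With 1 library left out in turn, 3 of the 5 calls were made every time, those of ZYX, TPM1 and VCL.

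Of 6 SRF cofactors, 5 were tested and 3 were called, all higher (60%, where 13.7% of all tested genes were called higher). These were ELK4 (0.33, edgeR adjusted p = 0.00619) and ELK1 (0.22, adjusted p = 0.0398), ternary complex factors that join SRF at immediate early promoters, and MRTFB, listed under its older symbol MKL2 (0.37, adjusted p = 0.018). MRTFA, its actin-sensing homolog, had a log2 fold change of -0.09 (adjusted p = 0.496). Among these calls, that of ELK4 alone was made whichever library was left out. The summed CPM of the cofactors was 195.7 to 212 in IGF2BP1-NC and 238 to 239 in IGF2BP1-KD.

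MYC (NCBI gene 4609) encodes the transcription factor that drives ribosome and growth genes, and its mRNA is held by IGF2BP1 at a coding region element. Counts were 4339, 3651 and 3921 in IGF2BP1-NC and 3244, 2872 and 2663 in IGF2BP1-KD. All KD libraries were below all NC libraries, and IGF2BP1-NC library 1 was the highest. Mean CPM was 226 ± 18.8 and 168 ± 14.8 (SD, n = 3), a log2 fold change of -0.43 ± 0.080 (SE; 95% interval -0.61 to -0.26; edgeR adjusted p = 0.00281). In rank the fall was moderate, number 1167 from the largest fall among the tested genes, with 21.5% of tested genes changing by more in either direction. The call was made in all 16 settings, and with 1 library left out the log2 fold change was -0.49 to -0.36.

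The MYC-MAX network, the set of factors that pair with MYC, MAX or MLX on E-boxes, moved in both directions. Of its 13 genes, 12 were tested, 4 were called higher and 3 lower including MYC (58.3%, against 28.2% of all tested genes), with a median of 0.19. MAX, the obligate partner of MYC, had 1096, 1163 and 1077 counts in IGF2BP1-NC and 634, 565 and 648 in IGF2BP1-KD. Every KD library was far below every NC library, and the fall of 0.85 on the log2 scale was larger than that of MYC itself (adjusted p = 4.8e-05, edgeR). MLXIP, a glucose-sensing partner of MLX, fell by 0.49 (adjusted p = 0.00121). The called rises were in MXD4 (0.39), MXI1 (0.39), MGA (0.35) and MLX (0.34), the first 3 of which are MAX partners known to oppose MYC, and were named after their values were seen. MYCN had 0 counts in every library, which allows up to 3 counts. All 7 calls but that of MXI1 were made whichever library was left out.

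Genes that MYC is known to regulate were examined as a list. All 30 were tested, 0 were called higher and 3 lower (28.2% of all tested genes were called), and their median log2 fold change was -0.0068. CCND2, cyclin D2, fell by 1.93 on the log2 scale (edgeR adjusted p = 0.00906), from counts of 1654, 966 and 841 to 318, 308 and 278. IGF2BP1-NC library 1 stood above the other libraries, and without IGF2BP1-KD library 3 the adjusted p was 0.0543 at a log2 fold change of -1.87. ENO1, a glycolytic enolase, fell by 0.34 (adjusted p = 0.00316), and FBL, the nucleolar fibrillarin, was the remaining call (-0.28), made in 2 of the 6 fits with a library left out. The 27 other genes of the list, among them the nucleolar and ribosome assembly genes NCL, NPM1, NOP56 and BOP1, did not pass the test.

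CD44 (NCBI gene 960; chr11:35138882-35232402, plus strand, 18 exons) encodes a hyaluronan receptor of adhesion and migration with many splice forms, which counts per gene cannot tell apart. Its counts were 118, 93 and 135 in IGF2BP1-NC and 339, 304 and 511 in IGF2BP1-KD. Each KD library was above every NC library, and IGF2BP1-KD library 3 stood above the others of its group. FPKM was 0.926, 0.725 and 1.01 in IGF2BP1-NC and 2.58, 2.45 and 3.99 in IGF2BP1-KD, a low level in both groups. The log2 fold change was 1.74 ± 0.208 (SE; edgeR adjusted p = 0.000475), or 3.35-fold with a 95% interval from 2.42 to 4.63. It ranked number 137 from the top, and 1.53% of tested genes changed by more in either direction. Without IGF2BP1-KD library 3 the log2 fold change was 1.49 and the call stood. On the log2(FPKM + 1) scale, which compresses low values, it was 1.07.

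Ligands, anchors and partners of CD44 were examined as a list of 25 genes including CD44. Of these, 17 were tested, 5 were called higher and 4 lower (52.9%, against 28.2% of all tested genes), with a median of 0.13. ANK3, an ankyrin that links membrane proteins to the spectrin skeleton, fell by 0.62 on the log2 scale (edgeR adjusted p = 0.00979). Other called genes were named after their values were seen. HMMR, another hyaluronan receptor, rose from a mean FPKM of 32.2 to 44.9 (0.47, edgeR adjusted p = 0.00171). CD74, the invariant chain that uses CD44 as a coreceptor, had counts of 10, 18 and 9 against 18, 63 and 45, so that the groups met at 18 (1.77, adjusted p = 0.0232), and the call was made in 2 of the 6 fits with a library left out.
Of the ezrin, radixin and moesin linkers that tie CD44 to actin, EZR was called higher (0.32) and MSN lower (-0.27), and the integrin subunit ITGB1 was called lower (-0.28). ANK1 (-0.30) and SRGN (0.20), which encodes the proteoglycan serglycin, completed the calls, and those of CD44, HMMR, EZR, ANK3 and ITGB1 were made in every such fit. The splicing factor ESRP1, which favours variant exons of CD44, and the hyaluronan enzymes HAS2 and CEMIP never exceeded 3 counts, and ESRP2 had at most 7.

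LIN28B (NCBI gene 389421; chr6:104936616-105083332, plus strand, 4 exons) encodes the RNA-binding protein that blocks let-7 maturation, and its 3′ UTR carries the let-7 matches printed above. Counts were 2024, 1602 and 1777 in IGF2BP1-NC and 1867, 1870 and 1559 in IGF2BP1-KD, so the groups overlapped throughout. The log2 fold change was -0.020 with a 95% interval from -0.24 to 0.20 (edgeR adjusted p = 0.899), so this comparison could not tell a fall or rise of up to about that size from 0. Its sign turned with the library left out, and 94.2% of tested genes changed by more. LIN28A, its paralog, had at most 8 counts in any library.

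HMGA2 (NCBI gene 8091; chr12:65824460-65966291, plus strand, 5 exons), a chromatin protein of embryonic growth, was close to the detection limit. Its counts were 8, 7 and 5 in IGF2BP1-NC and 6, 9 and 3 in IGF2BP1-KD, and it did not pass the filter on low counts. Without the filter its log2 fold change was -0.15 (edgeR adjusted p = 0.889). The log2 ratio of the mean CPM, 0.381 and 0.346, was -0.14, and any difference was not detectable at this depth. HMGA1, its paralog, was abundant in both groups, with FPKM of 816 in IGF2BP1-NC and 817 in IGF2BP1-KD (-0.01, edgeR adjusted p = 0.933).

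The let-7 and LIN28 list, which holds the let-7 targets, LIN28B, HMGA2 and the IGF2BP family, had 26 genes. Of these, 22 were tested, 3 were called higher and 6 lower (40.9%, against 28.2% of all tested genes), with a median of -0.015. The lower calls count IGF2BP1 itself, whose fall was set by the knockdown and raises this share. THBS1, the secreted thrombospondin, had the largest rise of the list, from counts of 40, 53 and 58 to 162, 200 and 212 (1.93, edgeR adjusted p = 8.0e-05). CCND1, cyclin D1, rose by 0.74 and INSR, the insulin receptor, by 0.55, whereas NR6A1 (-0.41), CDC34 (-0.32), DIS3L2 (-0.33) and CDC25A (-0.21) were lower beside IGF2BP1 and IGF2BP3; these 6 were named after their values were seen. DICER1, which cuts precursor miRNAs and is itself a let-7 target, had a log2 fold change of 0.07 (edgeR adjusted p = 0.479). The calls of THBS1, CCND1, CDC34, NR6A1 and IGF2BP1 were made in every fit with a library left out. The RNA-seq does not measure mature let-7.

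BTRC (NCBI gene 8945; chr10:101354033-101557321, plus strand, 15 exons) encodes β-TrCP1, the subunit by which a ubiquitin ligase recognises phosphorylated β-catenin and IκB. Counts were 606, 533 and 675 in IGF2BP1-NC and 536, 529 and 455 in IGF2BP1-KD. The KD libraries lay low, but IGF2BP1-KD libraries 1 and 2 were at about the level of IGF2BP1-NC library 2. Mean CPM was 34.4 ± 3.41 and 29.1 ± 2.75 (SD, n = 3), with a log2 fold change of -0.25 (95% interval -0.47 to -0.025; edgeR adjusted p = 0.0897), and no setting gave a call. FBXW11, the paralog β-TrCP2, had the tighter values, with counts of 1015, 999 and 1024 against 833, 795 and 799, and fell by 0.32 (adjusted p = 0.00468).

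In the list of β-TrCP and Wnt pathway genes, 28 of 31 were tested, 0 were called higher and 6 lower, with a median of -0.12. These calls were 21.4% of the tested list genes, where 28.2% of all tested genes were called, 14.5% lower. LEF1, a nuclear partner of β-catenin, fell by 0.75 on the log2 scale (edgeR adjusted p = 0.00298), and TCF7, of the same family, by 0.34 (adjusted p = 0.0366), a call that was lost whichever library was left out. The remaining falls, named after their values were seen, were in TCF7L2 (-1.24), FZD1 (-0.31) and the ligase scaffold CUL1 (-0.22), and those of FBXW11, LEF1 and TCF7L2 were made in every such fit. CTNNB1, β-catenin itself, had a log2 fold change of -0.09 (adjusted p = 0.311). Of 16 genes for β-TrCP substrates, 14 were tested, with 1 called higher (BORA, 0.26) and 4 lower (35.7% called) and a median of -0.084. PER1, a circadian repressor, fell by 0.55 (adjusted p = 0.00286) and NFKBIB, an inhibitor of NF-κB, by 0.47 (adjusted p = 0.00488), the other falls being FBXO5 (-0.27) and CDC25A (-0.21). With a library left out in turn, the calls of PER1 and NFKBIB were made in all 6 fits, FBXO5 in 4, BORA in 2 and CDC25A in 1. Since β-TrCP acts on proteins, these mRNA levels do not measure its activity.

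GLI1 (NCBI gene 2735; chr12:57459785-57472268, plus strand, 12 exons) is the transcriptional effector and a target of Hedgehog signalling. Its counts were 25, 18 and 15 in IGF2BP1-NC and 16, 18 and 34 in IGF2BP1-KD, all within the same range but for IGF2BP1-KD library 3. The log2 fold change was 0.23 ± 0.37 (SE; 95% interval -0.58 to 1.05; edgeR adjusted p = 0.671), an interval that spans from 0.668-fold to 2.07-fold. Without IGF2BP1-KD library 3 it was -0.17. Of 19 listed pathway genes, 8, including the transducer SMO, GLI2, GLI3 and the ligands SHH and IHH, never exceeded 3 counts in a library.
The receptor PTCH1, another target of the pathway, was at an FPKM of 2.66 in both groups (-0.01, edgeR adjusted p = 0.942), and the inhibitor SUFU had -0.30 (adjusted p = 0.0564). Of the 10 tested genes, KIF7, a kinesin of the pathway, was called lower (-0.97, edgeR adjusted p = 0.0154), as was the ligand DHH (-1.29), named after its values were seen. Neither call was made in every fit with a library left out.

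Other mRNAs reported as IGF2BP1 targets were examined as a list. Of 12, 10 were tested, 1 was called higher and 1 lower (20%, against 28.2% of all tested genes), with a median of -0.061. ABCB1, a drug efflux pump, had counts of 557, 240 and 266 in IGF2BP1-NC and 144, 146 and 126 in IGF2BP1-KD (-1.34, edgeR adjusted p = 0.0417). IGF2BP1-NC library 1 stood above all others, and the call was lost without any 1 of the KD libraries, with an adjusted p of up to 0.162. CDC5L, a spliceosome protein and the target that the study followed, was called higher (0.23, edgeR adjusted p = 0.0192). It lost the call without IGF2BP1-KD library 2, IGF2BP1-KD library 3 or IGF2BP1-NC library 2, with adjusted p of 0.0641, 0.0733 and 0.0685. The paper reported more CDC5L protein when IGF2BP1 was overexpressed in NCI-H929 cells. It reported less CDC5L protein when IGF2BP1 was knocked down in a different myeloma cell line, and no effect on the stability of CDC5L mRNA. The mRNA levels given here measure neither the protein nor the stability of the mRNA.

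A list of IGF2BP1 and proteins reported on coding region elements of mRNAs was also examined. All 6 genes were tested, with 1 called higher, 1 lower (33.3%, against 28.2% of all tested genes) and a median of -0.062. The gene called lower was IGF2BP1 itself, which the hairpin targets. Its call was set by the design and raises this share, so the share is no result about the list. Apart from IGF2BP1, the helicase DHX9 was the called one and was higher, with counts of 7931, 9257 and 10301 against 14875, 14696 and 16012 (0.74 ± 0.085, SE; edgeR adjusted p = 0.000217). All KD libraries were above all NC libraries, and the call was made in 16 of 16 settings. HNRNPU (-0.08), SYNCRIP (0.03) and PABPC1 (-0.05) did not pass the test, nor did YBX1 (-0.23, adjusted p = 0.0571).

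**Figure D5:**
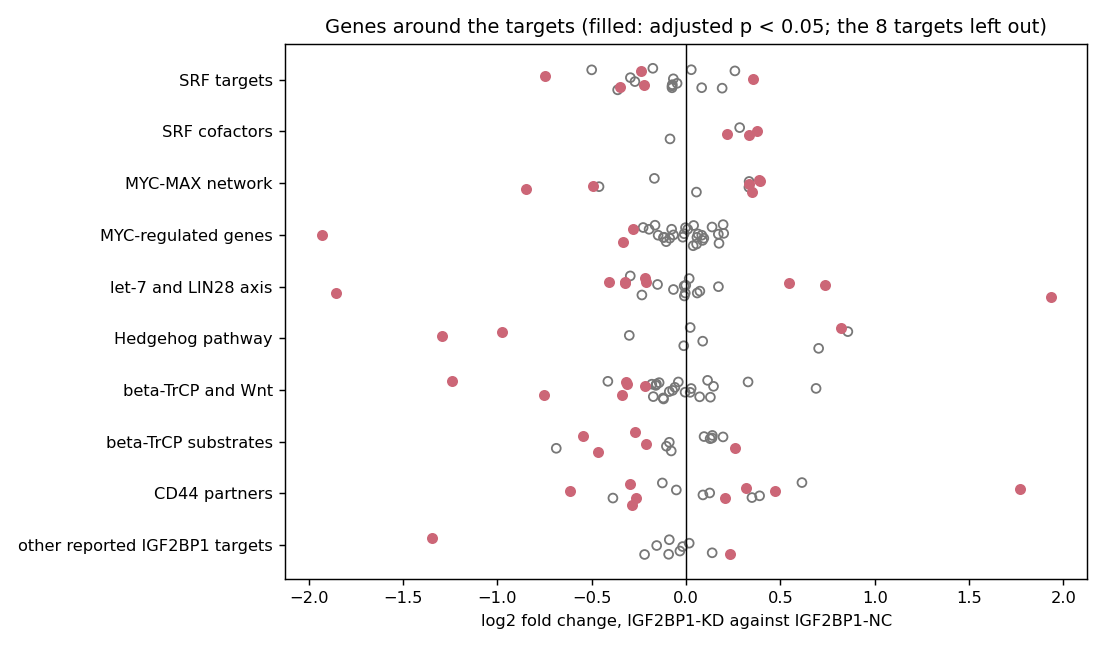
Log2 fold changes of the tested genes of 10 lists drawn around the target mRNAs, with the targets themselves left out; filled points have an adjusted p under 0.05 (edgeR). The SRF cofactors called are all higher and the Wnt genes called all lower, while the MYC-MAX network, the let-7 axis and the CD44 partners have calls on both sides. Over all tested genes 28.2% were called, 13.7% higher and 14.5% lower.

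As a description with no test, the genes whose log2 CPM followed the called members most closely over the 6 libraries were sought among 9283 genes. For CD44 these were CREBL2 (Pearson r = 0.997), HS1BP3 (0.997) and ZNF559 (0.996), and for MYC they were PLXNA1 (0.998), PROSER2 (0.995) and SLC2A13 (0.995). All 3 likest genes of CD44 shared with it the highest count in IGF2BP1-KD library 3. PLXNA1 shared with MYC the highest value in IGF2BP1-NC library 1, 5733 counts, and the lowest in IGF2BP1-KD library 3, 4007 counts. The 6 points of each correlation hold the difference between the groups, so that any gene with a similar difference comes close.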

How the data were processed

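Total RNA of cells labelled NCI-H929 was made into stranded mRNA libraries, 3 per group, grouped by the labels. The authors trimmed reads (Trimmomatic), mapped them to GRCh38 (HISAT2), counted reads per gene (HTSeq) and deposited whole-number counts without normalization, together with FPKM (Cufflinks). Versions, annotation and strand setting of the counting are not given in the sources used here, so reads on near-identical or overlapping genes have an unknown assignment. The deposited tables list 20030 genes. No 2 libraries held the same values, floors cover counting error only, and intervals of fold changes come from the fit.

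Counts were fitted in R 4.3.3 with edgeR 4.0.16 (TMM, filterByExpr, robust glmQLFit, glmQLFTest, Benjamini-Hochberg over 11994 genes), and the biological coefficient of variation was 9.55%. Fold changes are IGF2BP1-KD over IGF2BP1-NC. The deposited FPKM served for levels between genes and for limma 3.58.1 on log2(FPKM + 1) or log2(FPKM + 0.1) where the mean FPKM reached 1. The other alternatives were DESeq2 1.42.0, library-size and upper-quartile scaling, 2 filters, limma-voom, a 2-fold threshold, the replicate number as a block and each library left out. The tests were tried on simulated counts.

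The 8 members and 14 gene lists were chosen with earlier results of these data known, the lists from textbook knowledge. From each list the 2 called genes of largest change are named, if their mean log2 CPM reached 1, together with IGF2BP family members, paralogs and direct partners. Further list genes were named after their values were seen, and a few list genes are not reported here. Likeness used genes whose mean log2 CPM reached 3. Motifs were searched in GENCODE release 44 transcripts and RefSeq promoters with Python 3.11.15.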

Additional observations from a re-analysis of the deposited data

How the results depend on the processing

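Across the alternatives, 140 of 150 recomputed values were counted as kept. For a tested member this meant the same sign and the same side of the threshold. For numbers of called genes it meant a similar size, so that 3 members called in place of 2 counted as kept. For HMGA2 it meant the same sign and a ratio within the spread between libraries, and for the ACTB share the same direction. MYC and CD44 were called in all 16 settings of the test. With a 2-fold threshold added, 1 member (CD44) and 567 genes in all were called in place of 2 and 3386. ACTB passed the test without IGF2BP1-NC library 2 (0.20), and its leave-one-out values ran from 0.091 to 0.20. SRF passed with upper-quartile factors (0.19). LIN28B turned in sign with upper-quartile factors (0.0095), without IGF2BP1-NC library 1 (0.074) and without IGF2BP1-KD library 3 (0.066), with leave-one-out values from -0.086 to 0.074. GLI1 turned without IGF2BP1-KD library 3 (-0.17; range -0.17 to 0.46). The causes were not tested. CD44 ranged from 1.49 to 1.87 with a library left out and was 1.07 on the log2(FPKM + 1) scale. HMGA2, given as a ratio of means, ranged from -0.59 to 0.19, turning in sign without IGF2BP1-NC library 1 (0.012) and without IGF2BP1-KD library 3 (0.19), and was fitted only without a filter and by DESeq2. The ACTB share fell by 2.79 to 4.27 points, and all genes called with a library left out were 2290 to 3991. Scalings moved the median of all genes by at most 0.031. The labels number replicates 1 to 3 in both groups, but same-numbered libraries did not deviate together (r = -0.052, 0.036 and -0.11), so the numbers were not taken as pairs. With the replicate block, 2 members and 2913 genes were called. Depth limits HMGA2, GLI1 and the Hedgehog genes with at most 3 counts.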
